A study of Mus musculus with 96 samples.

Results

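The NMDA and kainate receptor subunits described here are 10 genes, namely the NMDA receptor genes Grin1, Grin2a, Grin2b, Grin2c, Grin2d and Grin3a and the kainate receptor genes Grik2, Grik3, Grik4 and Grik5. They were chosen by name among the 38887 genes of the table, and each had exactly 1 row under its Ensembl identifier (Gencode vM21). The data are single-neuron Patch-seq libraries: neurons of the lateral superior olive (LSO) were recorded in acute brainstem slices, their cytoplasm was aspirated into the patch pipette, and each pipette gave 1 library. The animals were C57BL/6J mice of both sexes in the second postnatal week, without any treatment, and the mouse from which a neuron came is not named. Principal LSO neurons (pLSOs) were divided by firing pattern into 41 Onset and 11 Sustained neurons, and lateral olivocochlear neurons (LOCs) were the 28 neurons with Delayed firing. For 8 negative controls, a pipette touched the slice and was withdrawn without a cell. Another 8 of the 96 libraries (6 labelled as neurons and 2 as negative controls) were left out, because earlier work on these data had found that they did not match the study's own tables. Since no animal is named, each class counts as 1 sample, no test between classes was made, and intervals and spreads describe neurons only.

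Glutamate opens 3 families of ion channels at excitatory synapses, the AMPA, kainate and NMDA receptors. An NMDA receptor is a tetramer that needs the GluN1 subunit (Grin1), which binds the co-agonist glycine or D-serine, together with GluN2 subunits (Grin2a to Grin2d), which bind glutamate, or with GluN3 subunits. The GluN2 subunit sets how slowly the current decays and how strongly magnesium blocks it: GluN2B and GluN2D are typical of young neurons, and in many brain regions GluN2A takes over as circuits mature. Among the kainate receptor subunits, GluK1 to GluK3 can form channels by themselves, whereas GluK4 and GluK5 (Grik4, Grik5) bind glutamate with high affinity but need one of the former as a partner. pLSOs compare sound intensity between the ears and project upwards, and LOCs send their axons to the cochlea.

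The deposited values are TPM as whole numbers, and what 1 TPM stands for differed greatly between these genes. The authors' values had been divided by a length that rises along the rows of the table and is not the gene's own length. Because values near the top of the table fall on whole multiples of 1 read, both this length and the number of reads behind a value could be estimated. In rows 531 to 1500, which were not used to find the step of a library, 7416 of 7422 values (99.9%) were whole numbers of reads within rounding, where a random value would have been called whole in 16.5% of cases. In the median neuron, 1 read of Grik3 (row 350) or Grin2d (row 477) was worth 17.3 TPM, and 1 read of Grik5 (row 576) 13 TPM. In contrast, 1 TPM stood for 2.31 reads of Grin1 (row 5877), 5.11 reads of Grin2b (row 7728), 15.9 reads of Grik2 (row 16225) and 16.3 reads of Grin2a (row 16885). Hence, a single read sufficed to list Grik5 or Grin2d as expressed, whereas Grik2 and Grin2a were listed at 0 until about 8 reads were reached. Levels of different genes are therefore compared as own-length TPM, that is, estimated reads divided by the gene's own exon length and scaled to a sum of 1000000 per library. For 1 gene, the row length is the same in every library, but the row lengths also enter the sum to which a library is scaled. The ratio of the pLSO mean to the LOC mean therefore depended on the scale, with 2.00 as deposited, 2.31 as own-length TPM and 2.05 as reads per 1000000 for Grin1, and with 3.24, 3.60 and 3.36 for Grin2b.

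**Figure D1:**
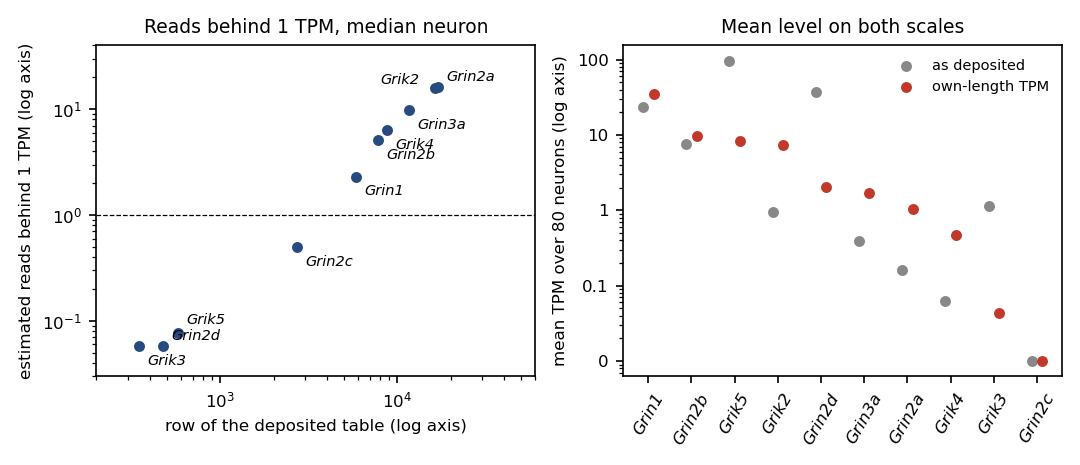
Scale of the values for the 10 subunits. Left, estimated reads behind 1 TPM in the median of 80 neurons against the row of the gene in the table (both axes log; dashed line, 1 read), from 0.0579 reads for Grik3 and Grin2d to 16.3 reads for Grin2a. Right, mean over 80 neurons as deposited (grey) and as own-length TPM (red) on a log axis, where Grik5 has the highest deposited mean (97.0 TPM) but Grin1 the highest own-length mean (34.6 TPM).

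The estimated depth was 624000 reads in the median pLSO (132000 to 2646000) and 451000 reads in the median LOC (234000 to 1446000), and the median number of detected genes was 2560.5 and 2394. The negative controls held 2000 to 111000 reads, with a median of 25000 and of 821 detected genes. The 6 pLSO markers and 6 LOC markers were among the genes that the study had ranked highest for separating these same neurons. Their separation is therefore no independent check of the labels. The summed TPM of the 6 pLSO markers had a median of 518.5 in pLSOs and 2 in LOCs, and that of the 6 LOC markers a median of 0 in pLSOs and 2079 in LOCs. Transcripts of glia were present in both classes, where the summed level of 6 astrocyte markers had a median of 360.5 TPM (0 to 7521) among pLSOs and 244 TPM (0 to 10407) among LOCs, and that of 5 oligodendrocyte markers 107.5 TPM (0 to 6658) and 231.5 TPM (1 to 5083). The negative controls were not free of neuronal transcripts either, with a median of 1116 TPM over 6 neuronal markers, and 3642 TPM (389 to 7794) over the oligodendrocyte markers. These sums are of deposited values, in which each gene is weighted by its row, so that sums over different marker lists cannot be compared in size. The part of glial and free transcripts in the values below was not tested.

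On the own-length scale, Grin1 was the highest of the 10 genes, with a mean of 34.6 ± 65.2 TPM (SD, n = 80 neurons). It was followed by Grin2b (9.71 ± 23.4), Grik5 (8.37 ± 33.1) and Grik2 (7.30 ± 25.6), by Grin2d (2.01 ± 9.75), Grin3a (1.71 ± 9.78) and Grin2a (1.03 ± 7.96), and then by Grik4 (0.469 ± 3.48) and Grik3 (0.0429 ± 0.315). Grin2c was listed at 0 in every neuron. In each of the 9 detected genes the SD over neurons exceeded the mean, so that neighbours in this order do not differ beyond their spread. As deposited, the order was led by Grik5 with 97.0 TPM and Grin2d with 36.9 TPM, ahead of Grin1 with 23.4 TPM and Grin2b with 7.63 TPM.

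A gene was counted as expressed in a neuron when it was listed at 1 TPM or more, which after the rounding to whole numbers means about 0.5 TPM or more. By this criterion, 6 of the 10 subunits were expressed by a higher share of pLSOs than of LOCs, 3 by a higher share of LOCs, and Grin2c by none. Only 6 of the subunits (Grin1, Grin2b, Grin2d, Grin3a, Grik2 and Grik5) were expressed in at least 5% of the 80 neurons, the filter behind the figures for all genes, and of these 5 had the higher share in pLSOs. Among the 10319 genes past that filter, the share was higher in pLSOs for 57.4% and in LOCs for 42% of genes. A share at least 20 percentage points higher in pLSOs was found for 1 of the 6 subunits, Grin2b, beside 5.46% of all genes, and no subunit reached 20 points in favor of LOCs, beside 3.25%. A deposited mean at least 2-fold higher in pLSOs was found for Grin2b, Grik2 and Grik5, beside 30.9% of all genes, and 1 at least 2-fold higher in LOCs for Grin2d, beside 21.9%. Grin1 fell just short of 2-fold as deposited and passed it on both other scales. The LOC mean of Grik2 rested on 2 neurons and the pLSO mean of Grin2d on 3, so these 2 calls rest on few neurons. Thus, apart from Grin2b and Grin2d, which lay towards the ends of the distribution over all genes, differences of this size were common among genes in general.

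**Figure D2:**
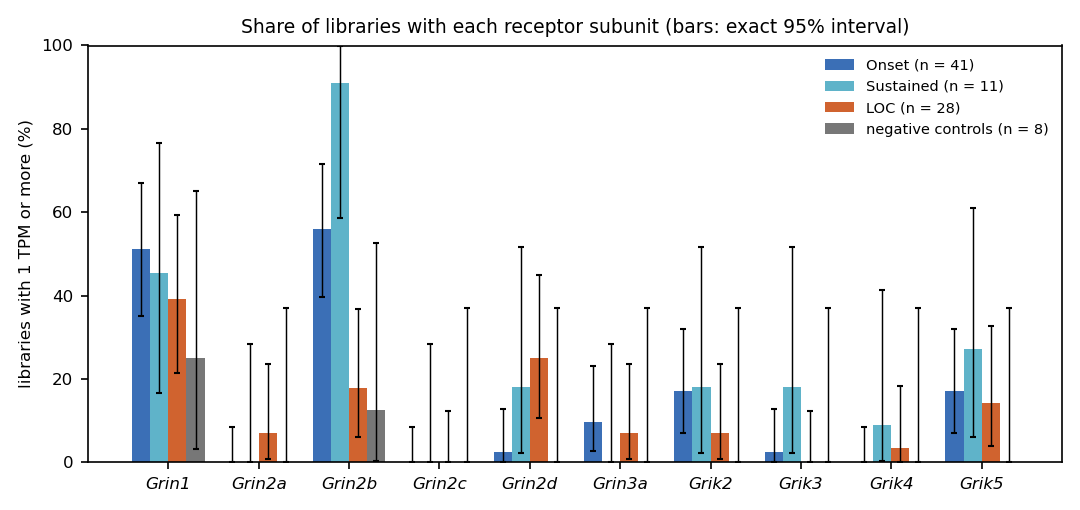
Percentage of libraries with 1 TPM or more of each subunit in Onset neurons (n = 41), Sustained neurons (n = 11), LOCs (n = 28) and negative controls (n = 8), as bars with exact Clopper-Pearson 95% intervals that cover counting error only. Grin2b reaches 56.1% of Onset and 90.9% of Sustained neurons but 17.9% of LOCs, whereas Grin1 lies between 39.3% and 51.2% in the 3 classes.

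Grin2b encodes GluN2B, the GluN2 subunit of slowly decaying NMDA receptors in young neurons (ENSMUSG00000030209, chromosome 6 of GRCm38 from 135713233 to 136173511, minus strand). It was expressed by 33 of 52 pLSOs (63.5%, 95% interval 49.0 to 76.4%) and by 5 of 28 LOCs (17.9%, 6.06 to 36.9%), a difference of 45.6 percentage points. Of the 10319 genes, 32 (0.310%) had a difference at least as large in favor of pLSOs. The values of pLSOs ran from 0 over a median of 1 to 95 TPM, whereas those of LOCs had a median of 0 and the 5 LOCs with a value stood at 2, 5, 5, 15 and 60 TPM. The classes overlapped, as 19 pLSOs were listed at 0 and cell_63, a LOC with an estimated 602 reads, exceeded all but 4 pLSOs. The mean was 10.1 ± 21.3 TPM (SD) for pLSOs and 3.11 ± 11.6 TPM for LOCs, a ratio of 3.24, and without the highest neuron of each class the ratio was 8.39. The difference of mean log2(TPM + 1) was 1.28.

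The higher share of Grin2b in pLSOs was not limited to 1 criterion. At 25 RPM (estimated reads per 1000000 reads of the library), a threshold that is above 1 read in every neuron, Grin2b was present in 22 of 52 pLSOs (42.3%, 28.7 to 56.8%) and 4 of 28 LOCs (14.3%, 4.03 to 32.7%), with intervals that overlapped slightly. A difference of at least 20 points in favor of pLSOs was seen for 5.61% and in favor of LOCs for 2.99% of 8139 genes at this threshold. As pLSO libraries were deeper, the count was repeated in libraries of 200000 to 1000000 reads, where Grin2b was expressed by 25 of 35 pLSOs (71.4%) and 2 of 23 LOCs (8.70%). However, this range left out the LOCs cell_57, cell_63 and cell_76, which held Grin2b at 15, 60 and 5 TPM. Their libraries had 1162000, 1090000 and 1446000 reads. Deeper pLSOs with and without Grin2b were left out as well. The wider gap in this range therefore rests partly on the LOCs removed, and it does not show that the gap holds in the deepest libraries. At 10 TPM the intervals overlapped, with 10 of 52 pLSOs (19.2%, 9.63 to 32.5%) and 2 of 28 LOCs (7.14%, 0.877 to 23.5%). In the negative controls, 1 of 8 libraries held Grin2b, at 17 TPM or about 13 reads, so that the share among LOCs cannot be told apart from that in pipettes without a cell (12.5%, 0.316 to 52.7%). Grin2b also stood at 5 TPM, or about 10 reads, in NC6, a left-out library labelled as a negative control. With all libraries as labelled, it was held by 2 of 10 controls (20%), 5 of 30 LOCs (16.7%) and 34 of 56 pLSOs (60.7%). The wide interval of the controls also overlapped slightly with that of pLSOs at 1 TPM (49.0 to 76.4%). In addition, the controls were much shallower, with a median of 25000 reads beside 451000 in LOCs and 624000 in pLSOs.

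**Figure D3:**
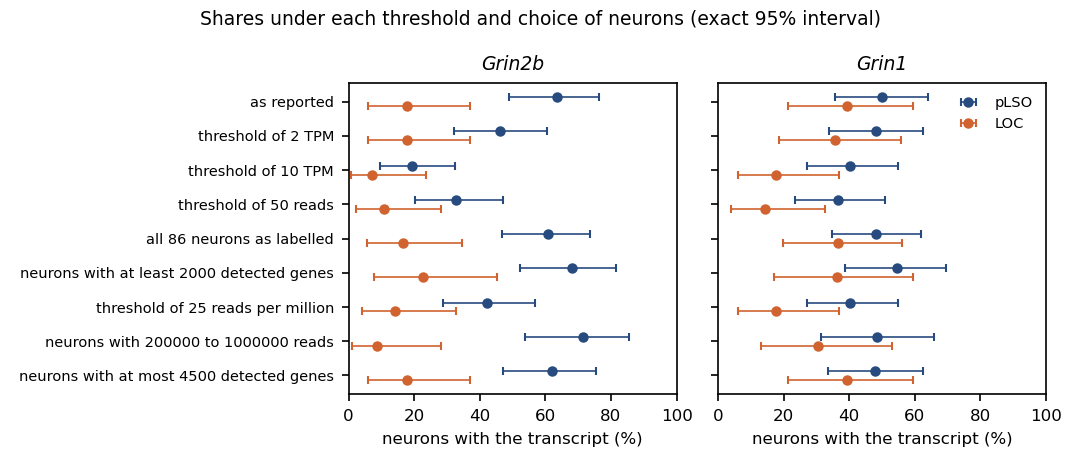
Percentage of neurons with Grin2b (left) and Grin1 (right) in pLSOs (blue) and LOCs (orange) under each threshold and each choice of neurons, with exact 95% intervals. The blue point lies to the right of the orange one in every row of both panels, and for Grin2b the intervals overlap at thresholds of 10 TPM, 50 reads, 2 TPM and 25 RPM.

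Grin1 encodes GluN1, the subunit without which no NMDA receptor forms (ENSMUSG00000026959, chromosome 2 from 25291181 to 25319187, minus strand). It was expressed by 26 of 52 pLSOs (50%, 35.8 to 64.2%) and 11 of 28 LOCs (39.3%, 21.5 to 59.4%), and 18.5% of all genes had a difference of at least these 10.7 points. The values ran from 0 over a median of 0.5 to 172 TPM in pLSOs and from 0 over a median of 0 to 172 TPM in LOCs, so that the ranges were the same. The mean was 28.3 ± 45.2 TPM for pLSOs and 14.2 ± 40.1 TPM for LOCs, a ratio of 2.00, and 3.06 without the highest neuron of each class. Among neurons that expressed it, the median was 40 TPM in Onset neurons, while 6 of the 11 LOCs lay at 6 TPM or less. Accordingly, at 25 RPM the shares moved apart to 21 of 52 pLSOs (40.4%, 27 to 54.9%) and 5 of 28 LOCs (17.9%, 6.06 to 36.9%), with intervals that still overlapped. This difference was above 20 points, beside 5.61% of genes at this threshold. A total of 2 of 8 negative controls held Grin1, at 3 and 24 TPM, or about 1 and 6 reads. Exons of the antisense gene Grin1os cover 13.5% of the Grin1 exon bases, and in these bases its reads cannot be told apart from those of Grin1 without strand information. Whether reads in these bases were counted for Grin1 is not stated. Grin1os itself was listed in 2 LOCs, at no more than 1 TPM. However, its row (28145) lies further down than that of Grin2a (16885), so that 1 TPM stood for at least 16.3 reads in the median neuron. Fewer antisense reads could have been rounded to 0, and these values do not show how many there were.

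Grin2d had the largest difference in favor of LOCs among the 10 subunits. It encodes GluN2D, which gives the slowest NMDA currents and a weak magnesium block (ENSMUSG00000002771, chromosome 7 from 45831883 to 45878378, minus strand). A total of 7 of 28 LOCs (25%, 10.7 to 44.9%) and 3 of 52 pLSOs (5.77%, 1.21 to 15.9%) expressed it, with overlapping intervals, and 3.62% of all genes had a difference at least as large in favor of LOCs. The 7 LOCs held 20, 27, 35, 104, 355, 612 and 1304 TPM, which came out as 1, 1, 1, 4, 11, 85 and 50 reads. The 3 pLSOs held 21, 42 and 433 TPM, or 1, 5 and 21 reads. Thus 4 of the 10 neurons were counted on a single read, and the mean of 87.8 TPM in LOCs rested on few reads: on the own-length scale it was 4.86 ± 15.8 TPM for LOCs and 0.473 ± 2.94 TPM for pLSOs. Without the highest neuron of each class these means were 2.19 and 0.068 TPM. At 25 RPM, 3 LOCs (10.7%, 2.27 to 28.2%) and 1 pLSO (1.92%, 0.0487 to 10.3%) remained, with overlapping intervals. No negative control held Grin2d, which with 8 libraries allows a share of up to 37.5%.

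The other NMDA receptor genes were rare. Grin2a, which encodes the GluN2A subunit of mature synapses (ENSMUSG00000059003, chromosome 16 from 9567898 to 9995560, minus strand), was listed in none of 52 pLSOs, which allows a share of up to 5.77%, and in 2 LOCs at 2 and 11 TPM, or 98.5 and 135 reads. Its 1 TPM stood for about 16 reads in the median neuron, so that a few reads would have been rounded to 0, and a low level of Grin2a was not detectable at this depth. Grin2c, the subunit of cerebellar granule cells, was listed at 0 in each of the 80 neurons, although 1 read would have been worth 2.00 TPM in the median neuron (ENSMUSG00000020734, chromosome 11 from 115249169 to 115267243, minus strand). In contrast to Grin2a, 0 of 80 therefore means that almost no read was counted. Grin3a encodes GluN3A, which lowers calcium entry through NMDA receptors of young neurons (ENSMUSG00000039579, chromosome 4 from 49661611 to 49845744, minus strand). It was expressed by 4 pLSOs, each an Onset neuron, at 1, 1, 1 and 18 TPM, and by 2 LOCs at 1 and 9 TPM, and the shares of 7.69% and 7.14% did not differ beyond counting error.

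Among the kainate receptor genes, Grik2 had the highest number of reads. It encodes GluK2, which can form a channel without other subunits (ENSMUSG00000056073, chromosome 10 from 49094833 to 49788766, minus strand). Grik2 was found in 9 of 52 pLSOs (17.3%, 8.23 to 30.3%) and 2 of 28 LOCs (7.14%, 0.877 to 23.5%), with intervals that overlapped. The 7 Onset neurons held 1, 3, 3, 4, 4, 5 and 10 TPM, the 2 Sustained neurons 11 and 21 TPM and the 2 LOCs 1 and 12 TPM. These low values stood for many reads, about 924 in cell_51 at 21 TPM and about 158 in cell_60 at 12 TPM. Since 1 TPM of Grik2 equals 31.3 RPM in the median neuron, the threshold of 25 RPM cannot be resolved for this gene or for Grin2a (32.0 RPM). On the own-length scale, the mean was 9.55 ± 29.6 TPM for pLSOs and 3.13 ± 15.3 TPM for LOCs. Without the highest neuron of each class it was 6.28 and 0.252 TPM, so that the LOC mean rested on cell_60. No negative control held Grik2.

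Grik5 encodes GluK5, a partner subunit for heteromeric kainate receptors (ENSMUSG00000003378, chromosome 7 from 25009849 to 25072346, minus strand). Its transcript was present in 10 of 52 pLSOs (19.2%, 9.63 to 32.5%) and 4 of 28 LOCs (14.3%, 4.03 to 32.7%). The mean TPM of 125 ± 464 in pLSOs and 45.3 ± 214 in LOCs gave a ratio of 2.75, which was 13.9 without the highest neuron of each class, so that 2 neurons decided this ratio. The 7 Onset neurons stood at 11, 177, 525, 538, 539, 1607 and 2879 TPM (1, 11, 37, 44, 39, 170 and 69 reads), the 3 Sustained neurons at 25, 58 and 128 TPM and the 4 LOCs at 7, 10, 120 and 1132 TPM. In reads, the LOCs held 1, 1, 5 and 72, and the highest Onset neuron had 69 reads in a library of 193000. At 25 RPM, 6 pLSOs (11.5%, 4.35 to 23.4%) and 1 LOC (3.57%, 0.0904 to 18.3%) remained. No negative control held Grik5.

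Grik4 and Grik3 were nearly absent. Grik4, which encodes the GluK4 partner subunit (ENSMUSG00000032017, chromosome 9 from 42518135 to 42944493, minus strand), was listed in 1 Sustained neuron at 1 TPM and in 1 LOC at 4 TPM. Grik3, which encodes the low-affinity subunit GluK3 (ENSMUSG00000001985, chromosome 4 from 125490700 to 125714173, plus strand), was listed in 1 Onset neuron at 13 TPM and 2 Sustained neurons at 13 and 64 TPM, which came out as 1, 1 and 3 reads. It was listed in none of 28 LOCs, which allows a share of up to 10.7%.

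**Figure D4:**
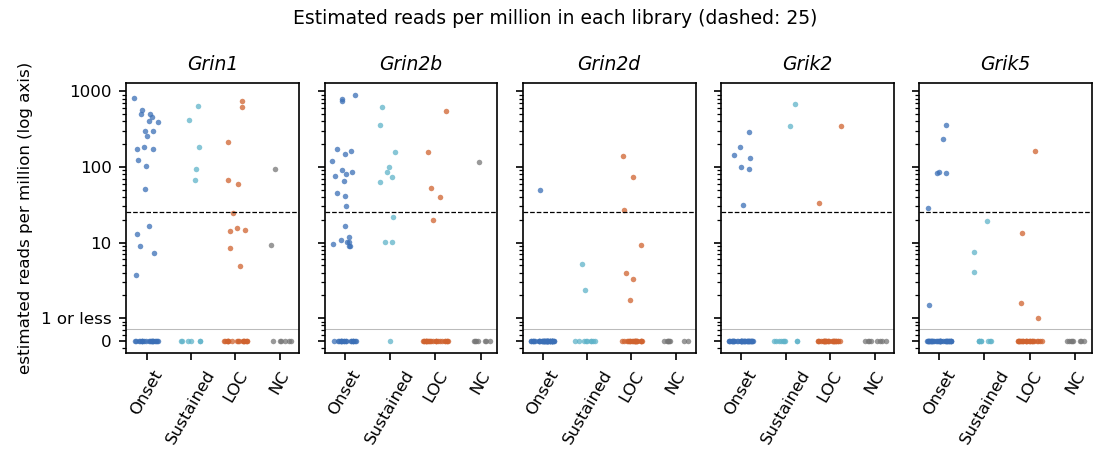
Estimated reads per 1000000 (RPM) of 5 subunits in each library of Onset and Sustained neurons, LOCs and negative controls (NC), on a log axis with libraries listed at 0 on the lowest line and values under 1 drawn at 1. The dashed line marks 25 RPM. Each class overlaps with the others in every panel, and Grin2d and Grik5 have points below the dashed line that stand for few reads. For Grik2 no point can lie far below the line, because fewer reads were rounded to 0.

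Within the pLSOs, Grin2b also differed between the firing patterns. This gene was expressed by 10 of 11 Sustained neurons (90.9%, 58.7 to 99.8%) and 23 of 41 Onset neurons (56.1%, 39.7 to 71.5%). A share at least 20 points higher in Sustained neurons was found for 10.7% of all genes, one at least 20 points higher in Onset neurons for 3.22%, and 1.58% of genes had an Onset minus Sustained difference at or below that of Grin2b (-34.8 points). The intervals overlapped, and the medians were 7 TPM in Sustained and 1 TPM in Onset neurons. At 25 RPM the shares were 7 of 11 (63.6%, 30.8 to 89.1%) and 15 of 41 (36.6%, 22.1 to 53.1%). Grin1 was expressed by 5 of 11 Sustained neurons (45.5%) and 21 of 41 Onset neurons (51.2%), with means of 29.1 ± 49.7 and 28.1 ± 44.6 TPM. Of the 6 subunits past the filter, 2 (Grin1 and Grin3a) had a higher share in Onset neurons, beside 38.6% of all genes, and 4 in Sustained neurons, beside 60.4%. Grik3 and Grik4 also had the higher share in Sustained neurons. Sustained neurons included the 2 neurons with the most detected genes, cell_45 with 6276 and cell_46 with 4751, and these were the only Sustained neurons with Grin2d and held 2 of its 3 values of Grik5. Without both, 4 subunits had a higher share in Onset neurons, while Grin2b was still expressed by 8 of 9 Sustained neurons (88.9%).

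A single pLSO expressed on average 1.71 ± 1.13 of the 10 subunits (SD, n = 52; range 0 to 6) and a single LOC 1.21 ± 0.957 (n = 28; range 0 to 3). Onset neurons had 1.56 ± 0.976 subunits and Sustained neurons 2.27 ± 1.49, which was 1.67 for the 9 Sustained neurons without cell_45 and cell_46. No subunit at all was found in 3 of 52 pLSOs and 7 of 28 LOCs. The richest neuron was cell_46, with Grin1, Grin2b, Grin2d, Grik3, Grik4 and Grik5. The negative controls held 0.375 ± 0.744 subunits (n = 8), and 6 of them held none. The means depended on the threshold: at 10 TPM they were 0.981 in pLSOs and 0.679 in LOCs, and at 50 estimated reads 0.885 and 0.5.

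**Figure D5:**
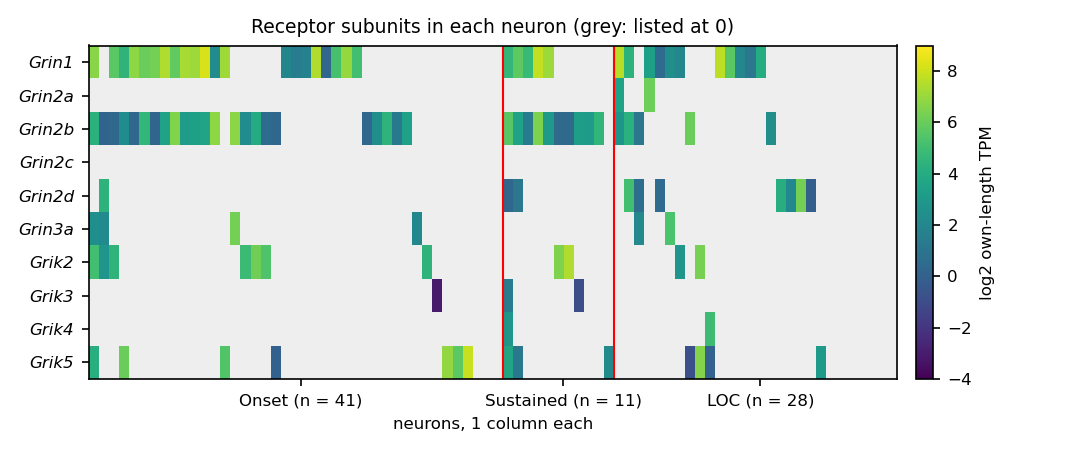
The 10 subunits (rows) in each of the 80 neurons (columns), divided by red lines into Onset neurons, Sustained neurons and LOCs and ordered within a class by the number of subunits. Color gives log2 of own-length TPM and grey marks values listed at 0, which cover the row of Grin2c completely and most of every row except those of Grin1 and Grin2b in pLSOs.

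As a GluN1 subunit alone does not form a glutamate-gated NMDA receptor, joint expression was counted per neuron. Grin1 together with at least 1 Grin2 gene was found in 17 of 52 pLSOs (32.7%, 20.3 to 47.1%) and 4 of 28 LOCs (14.3%, 4.03 to 32.7%). In pLSOs the Grin2 gene was Grin2b in each of the 17 neurons, and 2 of them also held Grin2d. The 4 LOCs were less uniform: Grin1 was joined by Grin2a and Grin2b in cell_76, by Grin2b and Grin2d in cell_57, by Grin2d in cell_69 and by Grin2a in cell_71. Grin1 without a Grin2 gene was found in 9 pLSOs and 7 LOCs, a Grin2 gene without Grin1 in 16 pLSOs and 7 LOCs, and neither in 10 pLSOs and 10 LOCs. The product of the separate shares was 31.7% in pLSOs and 15.4% in LOCs, so that joint expression was about as frequent as the shares of its components alone would give. A kainate receptor gene was found in 20 of 52 pLSOs (38.5%) and 5 of 28 LOCs (17.9%). The partner subunits Grik4 and Grik5 were mostly seen without a channel-forming member of the list, in 8 of 10 pLSOs and 3 of 4 LOCs that expressed them. However, Grik2 or Grik3 was found in only 12 of 52 pLSOs and 2 of 28 LOCs in all, and Grik5 was listed from a single read but Grik2 only from about 8, so that nothing can be read from these counts about joint expression.

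The surroundings of these receptors were followed with 31 listed partner genes, namely auxiliary, scaffold, signalling and transport genes and the other ionotropic glutamate receptors, all of which were in the table. The share of neurons was at least 20 points higher in pLSOs for 6 of the 31, beside 5.46% of all genes, and in LOCs for 3, beside 3.25%, and it lay within 20 points for 22, with a median difference of 0.824 points. The study had already called Gria4, Gria1 and Rasgrf1 different between these same neurons, and the list was chosen with such results known. The counts beside those of all genes are therefore no independent result about the partners. Higher in pLSOs were the AMPA receptor genes Gria4 (73.1% against 28.6%), which encodes the GluA4 subunit of fast auditory synapses, and Gria3 (32.7% against 10.7%). The same held for the scaffold genes Dlg1 (71.2% against 46.4%) and Shank2 (38.5% against 17.9%), for Srr (34.6% against 14.3%), whose enzyme makes the co-agonist D-serine, and for Slc1a1 (46.2% against 25%), a neuronal glutamate transporter. Higher in LOCs were Rasgrf1 (67.9% against 11.5%), a Ras activator that binds GluN2B, Camk2b (64.3% against 28.8%), a subunit of the kinase CaMKII, and Gria1 (71.4% against 42.3%), which encodes GluA1. The kainate auxiliary genes Neto1 and Neto2 were rare, with 3.85% and 13.5% of pLSOs and 3.57% and 7.14% of LOCs. Gria2, expressed by 80.8% of pLSOs and 82.1% of LOCs, and Gria4 in pLSOs thus had a higher share than any NMDA or kainate subunit in the same class. Among Sustained neurons alone, the share of Grin2b was 90.9%. As the reads needed to list a gene differ between genes, shares of different genes do not rank their expression.

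Across the 80 neurons, the genes whose values were most like those of Grin2b among 4800 genes were Pitpnc1 (Spearman's rho 0.53), Zdhhc3 (0.51) and Kcnh7 (0.51), the last of which is one of the pLSO markers. For Grin1 they were Commd9 (0.45), Eif3h (0.43) and Nat8l (0.43), and for Grik5 they were Atad3a (0.40), Med13l (0.39) and Nxf1 (0.38). The points share their library and its depth, and the rho with the number of detected genes was 0.35 for Grin2b, 0.36 for Grin1 and -0.011 for Grik5. These are descriptions over sparse values that include both classes.

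The labels also give the spontaneous excitatory currents of most neurons. Their decay time constant had a median of 0.74 ms in Onset neurons (n = 39), 0.835 ms in Sustained neurons (n = 10) and 1.915 ms in LOCs (n = 28). These currents were recorded at a negative holding potential with magnesium in the bath, which blocks NMDA receptors to a degree that depends on the GluN2 subunit. The block is weak for GluN2D. The paper relates their speed to AMPA receptor subunits, and the part of NMDA receptors in them was not tested. LOCs, with the lowest share of Grin2b, had the slowest currents, but within pLSOs the Sustained neurons had both the higher share of Grin2b and the slower median decay. Within pLSOs (n = 49), the rho of the decay with Grin2b was 0.16 and with Grin1 0.13, and within LOCs (n = 28) the values were -0.23 and 0.18. These weak values are no finding.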

How the data were processed

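Patch-seq libraries of 86 neurons and 10 negative controls were made by the authors after a modified Smart-seq2 protocol and Nextera XT. Per the labels, reads were trimmed with Trim Galore 0.4.2, aligned with STAR to mm10, marked for duplicates with Picard 1.115 and summarised with featureCounts. The deposited score values are TPM rounded by the authors to whole numbers, with library sums between 999773 and 1000026. No column was without a sample.

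The step of 1 read was found for each library as the largest that made at least 95% of resolved values in the first rows whole, and the row lengths from 1338 values of 6 shallow libraries. Reads without molecular identifiers are not independent molecules, so intervals cover counting error only. The method was tested on simulated data: the step was recovered within 1% in 80 of 80 neuron libraries, and the reads of a library with a median error of 2.50%. In the simulated comparison of pLSOs with LOCs over 38887 genes, 98 of 100 genes raised and 97 of 100 lowered 4-fold passed 2-fold. The changed genes were drawn from those expressed in at least 20% of neurons, a set without Grin2d, Grik2 and Grik5. Of unchanged genes in that set, 4.52% passed 2-fold, whereas 30.9% and 21.9% of real genes past the 5% filter did so in either direction. The simulation therefore does not show how well 2-fold calls hold for genes as sparse as these. Of 38887 identifiers, 37570.0 had a name. Positions and exon lengths are those of Gencode vM21 (GRCm38). A gene with 0 of n libraries is given the limit of 3 over n; other shares have the exact Clopper-Pearson 95% interval. Ratios of means are not printed for genes held by at most 3 neurons in either class, although such genes were counted among those with means 2-fold apart. Without strand information, reads in exons of overlapping genes cannot be told apart, and how such reads were counted is not stated.

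Members were named by rule, partners were named if their shares differed by 20 points or more, and the 3 genes of highest Spearman's rho were named for the 3 members of highest share. The members and lists were chosen with earlier results of these data known, including the 8 libraries left out. Calculations used Python 3.11.15, pandas 2.3.3, NumPy 2.4.6 and SciPy 1.17.1, and figures matplotlib 3.10.9.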

Additional observations from a re-analysis of the deposited data

Results flagged for a closer look

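Among the 8 negative controls, the highest value of Grin1 (24 TPM, about 6 reads) and the only value of Grin2b (17 TPM, about 13 reads) stood apart from the other controls, with 1 other control at 3 TPM of Grin1. The rule behind this flag picks about 1 in 20 groups by chance only when values are normally distributed. It flags every gene that is held by only 1 control, as Grin2b was, so no rate by chance can be given here. Both controls that held Grin1 had more reads than the median control, namely 65000 and 111000.

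Receptor transcripts were also found in libraries or rows outside the comparisons, above the highest negative control. Grin1 stood at 145 TPM, or about 572 reads, in cell_54, a neuron labelled as Sustained that was left out. Grik4 stood at 4 TPM, or about 5 reads, in cell_78, a left-out LOC with 104000 reads. Grin3a stood at 124 TPM in NC5, a left-out library labelled as a negative control: this was about 375 reads, more than in any of the 80 neurons, of which the highest held 172 reads. Grik1, the remaining kainate receptor gene, was listed in 1 of 80 neurons, the LOC cell_57, at 15 TPM or about 27 reads. The cause of these values was not tested.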

How the results depend on the processing

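Of 80 alternative values for the main counts and shares, 72 stayed within 1 SD over neurons, the interval of a share or 1.5 times a count, which are wide limits here. Within them, the mean number of subunits per neuron went from 1.71 to 0.885 in pLSOs, from 1.21 to 0.5 in LOCs and from 2.27 to 1 in Sustained neurons at 50 estimated reads, and the LOCs with Grin1 and a Grin2 gene went from 14.3% to 7.14% at 50 reads and at 25 RPM. A threshold of 10 TPM lowered the share of neurons with Grin1 and a Grin2 gene to 11.5% of pLSOs, 7.32% of Onset neurons and 3.57% of LOCs, and 50 estimated reads lowered it to 17.3% of pLSOs and 14.6% of Onset neurons, where fewer neurons pass by construction. The 2 subunits with a higher share in Onset than in Sustained neurons became 1 at 10 TPM, 1 with the 86 neurons as labelled, and 4 in neurons with at most 4500 detected genes. For single genes, 35 of 364 alternative values moved by more than their spread or interval. In neurons with at most 4500 detected genes, which leaves out cell_45 and cell_46, Grin2d (2.44% of Onset and 0 of 9 Sustained neurons) and Grik5 (17.1% and 11.1%) turned from a higher share in Sustained to a higher share in Onset neurons. Pseudocounts of 0.1 and 10 TPM moved the log2 difference of Grin2b between 2.61 and 0.42. The thresholds of 25 RPM, the range of 200000 to 1000000 reads and the limit of 4500 detected genes were chosen after seeing the data. No paired analysis was possible because the labels give no animal and no shared replicate numbers.
Depth limits the rows low in the table: of Grin2a and Grik2, fewer than about 8 reads in the median neuron were rounded to 0. With 11 Sustained neurons and 8 negative controls, the intervals of their shares are wide.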
